A study of Homo sapiens with 12 samples.

Results

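The 10 core erythroid transcription factor genes GATA1, GATA2, KLF1, TAL1, NFE2, LMO2, LDB1, ZFPM1, GFI1B and MYB were followed in RNA sequencing counts from K562 cells. They were chosen by symbol, with earlier results of these data known, as 10 of the 28278 genes in the count table. All 10 were among the 15805 genes with enough counts to be tested. K562 is a human erythroleukaemia line that makes fetal and embryonic globins and can be pushed further along the erythroid path by sodium butyrate, an inhibitor of histone deacetylases. The study crossed genotype with treatment in 4 groups of 3 libraries each: unedited cells (WT) and cells with HRG1 knocked out (HRG1-KO), each left untreated or treated with sodium butyrate. HRG1 is a heme transporter encoded by SLC48A1. Treated cells received 0.75 mM butyrate at 24 h from plating, a second dose 48 h later, and were harvested 6 h after that dose, and the series places all groups at day 8 of differentiation. The labels do not say how the knockout was made, how many HRG1-KO clones were used, or whether each replicate was its own culture. The p-values below therefore measure the spread between these libraries only, and an effect of the deletion and a difference between clones cannot be told apart.

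These factors form the network that drives red cell formation. GATA2 is used in progenitors and is replaced on many shared sites by GATA1 as cells mature, with ZFPM1 (also called FOG1) as the zinc finger cofactor that GATA1 needs for much of its activity. TAL1, a helix-loop-helix protein, is joined to GATA1 through the LIM-domain adaptor LMO2 and the LIM-binding protein LDB1, which also links enhancers to promoters at the globin genes. KLF1 binds CACC motifs in globin and membrane protein genes, NFE2 binds globin enhancers as a dimer with a small MAF protein, GFI1B is a repressor that recruits histone-modifying enzymes, and MYB sustains progenitor growth.

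The RefSeq promoter table (GRCh38.p14) held 11 windows for 8 of the 10 genes, and NFE2 and LMO2 were without an entry. The 250 bases before a RefSeq start of 3 genes are shown, 5′ to 3′ on the gene's strand. ZFPM1 and LDB1 were the factors that differed in both settings of a comparison in the main edgeR fit, which left out the replicate number. KLF1 held more GATA boxes than any of the other 10 windows. Capitals mark matches, read on both strands, to the CACC box in the ZFPM1 and LDB1 windows and to the GATA box in the KLF1 window. The LDB1 window belongs to an internal start: it lies within the gene as GENCODE 29 places it, not before its outermost start.
ZFPM1 (chr16:88453030-88453279, plus strand): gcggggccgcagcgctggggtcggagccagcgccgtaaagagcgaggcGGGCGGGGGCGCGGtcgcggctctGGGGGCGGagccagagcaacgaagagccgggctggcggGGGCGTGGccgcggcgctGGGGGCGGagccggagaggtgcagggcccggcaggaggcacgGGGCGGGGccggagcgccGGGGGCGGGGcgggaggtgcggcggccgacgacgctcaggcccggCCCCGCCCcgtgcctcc
LDB1 (chr10:102115003-102115252, minus strand): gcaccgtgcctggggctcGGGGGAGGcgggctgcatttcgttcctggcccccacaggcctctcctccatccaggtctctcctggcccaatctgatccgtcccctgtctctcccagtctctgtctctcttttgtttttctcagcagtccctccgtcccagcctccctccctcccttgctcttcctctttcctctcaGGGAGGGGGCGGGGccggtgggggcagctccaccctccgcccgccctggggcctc
KLF1 (chr19:12887202-12887451, minus strand): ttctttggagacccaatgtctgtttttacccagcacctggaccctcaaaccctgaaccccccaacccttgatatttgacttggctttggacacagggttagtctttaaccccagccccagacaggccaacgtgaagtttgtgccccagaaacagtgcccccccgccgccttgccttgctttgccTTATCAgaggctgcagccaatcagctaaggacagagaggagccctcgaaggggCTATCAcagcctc

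The CACC box was searched as CCNCNCCC and counted with overlaps, a pattern that also takes in the GC-rich form CCCCGCCC. It matched 9 times in the ZFPM1 window and 4 times in the LDB1 window, and it occurs in 53.4% of the 35116 windows of the same length in the table, with the GC-rich form in 21.8%. The GATA box, searched as AGATAA with the first base also read as T and the last also as G, matched 2 times in the KLF1 window and was not found in those of ZFPM1 and LDB1. It occurs in 22.3% of all windows. These are matches of letters and were not tested as binding sites.

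Library totals ran from 19963594 to 30348538 counts, and the 10 genes held between 549 and 11539 counts in each library. SLC48A1 was lower in all 6 HRG1-KO libraries (55 to 313 counts) than in all 6 WT libraries (1357 to 1945 counts). All 10 erythroid markers in a list of globin, heme and membrane genes were detected, and their summed level was 7894 to 17475 CPM in untreated WT, 26373 to 63240 in treated WT, 3743 to 6680 in untreated HRG1-KO and 4800 to 7103 in treated HRG1-KO. CPM are counts scaled to library size after TMM normalisation, which evens out differences in composition between libraries. Of 3 lists of other lineages, the summed levels did not overlap between genotypes for megakaryocyte markers in untreated cells, myeloid markers in both treatments and lymphoid markers in treated cells. Megakaryocyte markers summed to 202 to 452 CPM in untreated and 204 to 580 CPM in treated WT. In HRG1-KO they summed to 85.5 to 110 CPM and 143 to 240 CPM. PF4 was at 3 counts or fewer in each library. GP6 alone held 403, 165 and 154 CPM in untreated WT replicates 1, 2 and 3. In untreated HRG1-KO edgeR called 2 of 7 tested markers higher and 3 lower, and in treated HRG1-KO 2 higher and 0 lower. Myeloid markers summed to 23.4 to 49.9 and 34.5 to 76.3 CPM in WT against 50.5 to 171 and 220 to 301 CPM in HRG1-KO, where edgeR called 3 of 8 tested markers higher and 1 lower in untreated and 4 higher in treated cells. Lymphoid markers summed to 14.8 to 23.0 and 20.7 to 30.7 CPM in WT against 13.2 to 32.2 and 49.3 to 73.5 CPM in HRG1-KO. Of these, edgeR called 2 of 5 tested markers higher and 2 lower in untreated, and 2 higher and 1 lower in treated HRG1-KO. Of all tested genes, 11.7% were called higher and 10.9% lower in untreated HRG1-KO, and 10.1% and 8.89% in treated HRG1-KO. The part of these lists in the genotype differences below was not tested. By whole profile, 2 libraries stood apart from their groups. Replicate 1 of treated WT lay nearer to the untreated WT libraries (root mean square log2 difference 1.15 over 15805 genes) than to the other treated WT libraries (1.32), and replicate 1 of treated HRG1-KO likewise (1.04 against 1.09), whereas the other 10 libraries lay nearer to their own group. The share of counts on the ribosomal RNA gene RNA28SN5 was 2.30% to 5.63% in the libraries numbered 1 and 0.673% to 2.86% in the rest. The part of either in the results below was not tested, and results that rest on the libraries numbered 1 are given with and without them. In bulk RNA, fewer cells of a type and less RNA per cell cannot be told apart.

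Butyrate raised ZFPM1 in both genotypes, and HRG1-KO cells had less LDB1 in both treatments and less NFE2 in the untreated state. A gene was called when its Benjamini-Hochberg adjusted p, taken over all 15805 genes, was under 0.05 in edgeR's quasi-likelihood test. The main edgeR fit did not use the replicate number. In WT, 1 of the 10 factors was called higher with butyrate, beside 2.35% of all tested genes called (1.8% higher, 0.55% lower). In HRG1-KO, 1 of 10 was called higher, beside 3.4% of all genes (2.8% higher). In the genotype comparison, 2 of 10 were called lower in untreated HRG1-KO cells, beside 22.6% of all genes in either direction and 10.9% lower, and 1 of 10 was called lower in treated HRG1-KO cells, beside 19% in either direction, 10.1% higher and 8.89% lower. With the replicate number as a block, 5 of 10 factors and 5217 of all 15805 genes were called in untreated cells, and 4 of 10 factors and 4612 genes in treated cells. At an unadjusted p under 0.05 in edgeR, 1 factor in WT and 2 in HRG1-KO differed with butyrate (18% and 19.8% of all genes), and 3 differed between genotypes without and 3 with butyrate (34.6% and 31.6%).

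**Figure D1:**
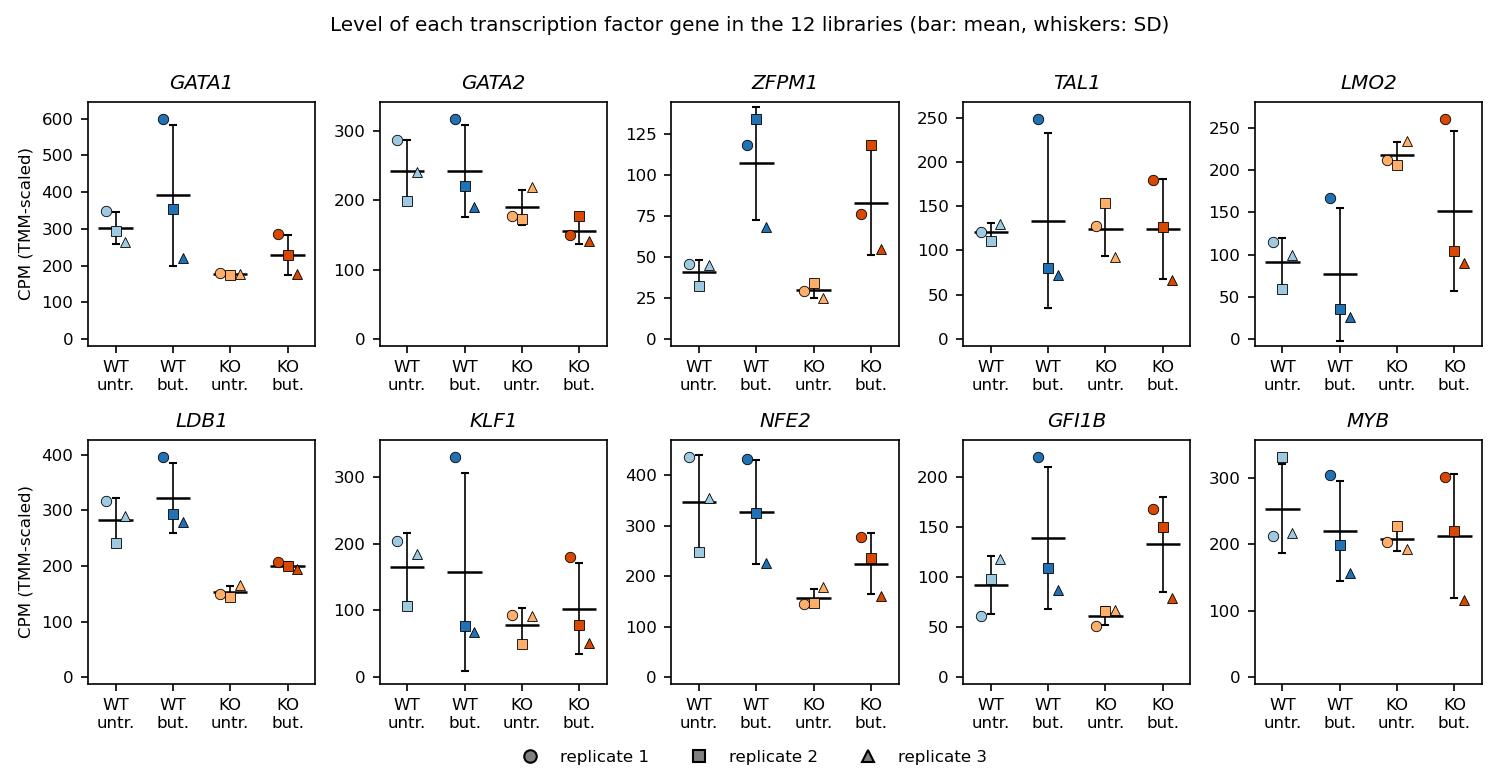
Level of each of the 10 transcription factor genes in TMM-scaled CPM (y axes, one scale per gene) in the 4 groups (x axes), with 1 symbol per library, a bar for the mean and whiskers for the SD (n = 3). ZFPM1 was higher in all 3 treated libraries of each genotype than in all 3 untreated ones, and replicate 1 was the highest treated WT library for 9 of the 10 genes.

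ZFPM1 was the 1 factor that butyrate raised past the threshold, and it rose in both genotypes. The gene lies at chr16:88453317-88537016 on the plus strand (GRCh38, GENCODE 29). Untreated WT libraries held 45.4, 32.6 and 45.2 CPM in replicates 1, 2 and 3, and treated WT libraries 118, 134 and 68.4 CPM. Untreated HRG1-KO libraries held 29.4, 34.4 and 25.1 CPM, and treated ones 75.8, 118 and 55.1 CPM. In each genotype every treated library lay above every untreated one, and the 2 genotypes overlapped within each treatment. In WT the log2 rise was 1.38 (SE 0.31), or 2.60-fold, with an edgeR adjusted p of 0.0393. In HRG1-KO it was 1.49 (SE 0.31, edgeR adjusted p 0.0262), or 2.80-fold. The difference between these rises was 0.11 (SE 0.43, edgeR adjusted p 1.00).

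Both ZFPM1 calls were sensitive to the libraries used. With 1 library left out, the WT rise ranged from 1.18 to 1.62 and its edgeR adjusted p reached 0.165, and the call was kept in 2 of 6 fits, those without replicate 1 or replicate 3 of treated WT. It was lost without any of the 3 untreated WT libraries and without replicate 2 of treated WT. The HRG1-KO rise ranged from 1.15 to 1.72 with an adjusted p of at most 0.12, was kept without replicate 1 or 3 of treated HRG1-KO and was lost without replicate 2 of that group or any untreated HRG1-KO library. Without all 4 libraries numbered 1 the rise was 1.36 in WT (edgeR adjusted p 0.0519) and 1.53 in HRG1-KO (0.0331). The fit of the 2 WT groups alone lost the WT call as well (1.39, edgeR adjusted p 0.0889).

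GATA1, the central activator of the network, lies at chrX:48786554-48794311 on the plus strand. It held 349, 295 and 263 CPM in untreated WT and 598, 354 and 221 CPM in treated WT. Untreated HRG1-KO libraries were within a narrow band of 179.6, 175 and 177 CPM, and treated ones held 285, 228 and 177 CPM. All untreated HRG1-KO libraries lay below all untreated WT libraries, whereas treated libraries of the 2 genotypes overlapped. The genotype difference was -0.77 on the log2 scale in untreated cells (SE 0.30, edgeR adjusted p 0.0880) and -0.77 with butyrate (SE 0.30, edgeR adjusted p 0.10), neither past the threshold. With the replicate number as a block, the values were -0.74 (edgeR adjusted p 0.0199) and -0.71 (0.0274), and both passed. Scaling by library size alone gave -0.79 in untreated cells (edgeR adjusted p 0.0378), and the 2 untreated groups fitted alone gave -0.78 (0.00865), both past it. With 1 library left out, the treated difference ranged from -1.07 to -0.33 and passed in 1 of 6 fits. The -0.33 came without replicate 1 of treated WT (edgeR adjusted p 0.367). Without all libraries numbered 1, GATA1 was not called between genotypes in either treatment. Butyrate differences were 0.37 in WT and 0.38 in HRG1-KO (SE 0.30 each, edgeR adjusted p 0.576 and 0.531).

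GATA2, the progenitor GATA factor, lies at chr3:128479427-128493185 on the minus strand. Untreated WT held 286, 198 and 241 CPM, treated WT 316, 221 and 189 CPM, untreated HRG1-KO 177, 173 and 219 CPM and treated HRG1-KO 149.6, 177 and 141 CPM. Treated HRG1-KO libraries were all below treated WT libraries, and the other pairs of groups overlapped. That difference was -0.64 (SE 0.22, edgeR adjusted p 0.0656), not past the threshold. Blocking on the replicate number gave -0.61, which passed it (edgeR adjusted p 0.0420). With 1 library left out, the difference ranged from -0.80 to -0.41 and passed in 1 of 6 fits. The -0.41 came without replicate 1 of treated WT (edgeR adjusted p 0.197). Without all libraries numbered 1, GATA2 was not called between treated genotypes. GATA2-AS1, which overlaps GATA2 on the opposite strand, held 16.7 ± 3.99 to 31.7 ± 13.1 CPM (SD, n = 3) as group means and was not called in any comparison. The use of strand in counting is not given in the sources used here, so reads of the pair cannot be told apart.

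The balance of the 2 GATA factors was also read within each library, as the log2 ratio of GATA1 to GATA2 counts, which does not depend on library scaling. For WT the ratio was 0.28, 0.57 and 0.13 without butyrate and 0.92, 0.68 and 0.22 with it. For HRG1-KO it was 0.02, 0.02 and -0.31 without and 0.93, 0.36 and 0.33 with it. Untreated HRG1-KO had the lowest ratios, with no overlap with either untreated WT or treated HRG1-KO. Butyrate raised the mean from -0.09 ± 0.19 to 0.54 ± 0.34 (SD, n = 3) in HRG1-KO, a difference of 0.63 with a two-sided exact permutation p of 0.1, the smallest that 3 libraries against 3 allow. The genotype difference in untreated cells was -0.42, also at the smallest possible exact permutation p of 0.1. The WT butyrate difference was 0.28 (exact permutation p 0.3), and the genotype difference with butyrate was -0.07 (exact permutation p 1). Adjusted over the 8 tests of the 2 ratios, the exact permutation p-values were 0.4, 0.4, 0.6 and 1, so no difference passed, which this design could not reach.

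**Figure D2:**
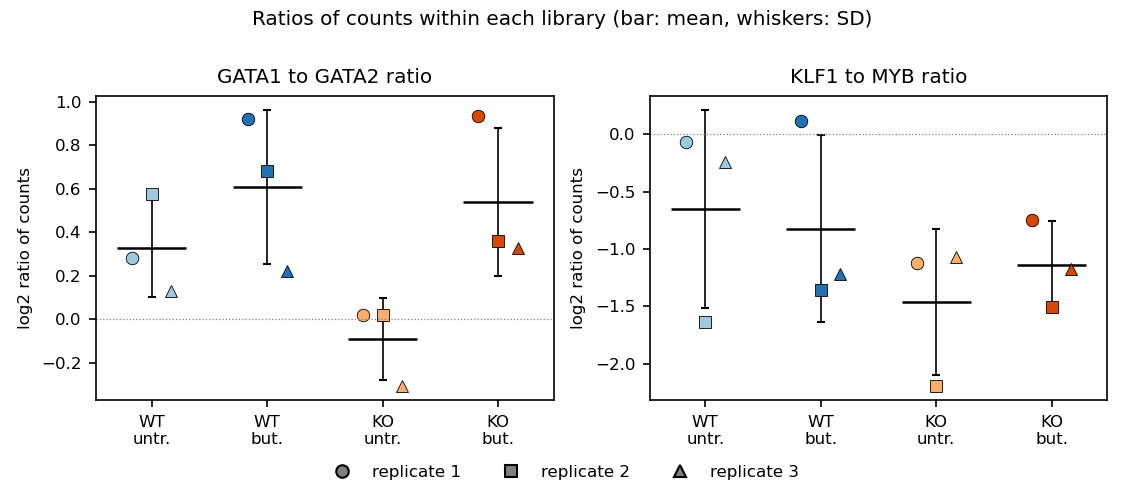
Log2 ratio of GATA1 to GATA2 counts (left) and of KLF1 to MYB counts (right) within each library (y axes) by group (x axes), with bars for the mean and whiskers for the SD (n = 3). The 3 untreated HRG1-KO libraries have GATA1 to GATA2 ratios between -0.31 and 0.02, below the 0.13 to 0.57 of untreated WT, and the KLF1 to MYB ratios overlap between all groups.

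LDB1, the scaffold of the TAL1 and LMO2 complex, was the factor called between genotypes in both treatments in the main edgeR fit. With the replicate number as a block, GATA1 and LMO2 were also called in both treatments. LDB1 lies at chr10:102107560-102120453 on the minus strand. WT libraries held 317, 241 and 290.1 CPM untreated and 395, 292 and 279 CPM treated. HRG1-KO libraries held 149, 144 and 165 CPM untreated and 207, 199 and 194 CPM treated. All HRG1-KO libraries lay below all WT libraries in both treatments. The difference in untreated cells was -0.89 in log2 (SE 0.18, edgeR adjusted p 0.00404), a level of 0.540 times that of WT. In treated cells it was -0.69 (SE 0.18, edgeR adjusted p 0.0199), or 0.621 times. Treated HRG1-KO libraries also all lay above untreated ones, a butyrate difference of 0.39 (SE 0.18) that was not past the threshold (edgeR adjusted p 0.262).

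The LDB1 difference in untreated cells was kept in all 6 fits that left out 1 library (-0.99 to -0.80, edgeR adjusted p at most 0.0205) and without the libraries numbered 1 (-0.80, 0.0127). In treated cells the range was -0.80 to -0.52. The call was lost without replicate 1 of treated WT (-0.52, edgeR adjusted p 0.0543), replicate 2 of treated HRG1-KO (0.0513) or replicate 3 of treated HRG1-KO (0.0535), without all libraries numbered 1 (-0.56, 0.0576), and in a fit of these 2 groups alone (-0.71, 0.0742).

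LMO2, the adaptor between LDB1 and TAL1, went the other way. The gene lies at chr11:33858576-33892289 on the minus strand. It held 115, 59.7 and 99.6 CPM in untreated WT and 167, 35.5 and 26.7 CPM in treated WT. In HRG1-KO it held 212, 206 and 235 CPM untreated and 260.1, 104 and 90.1 CPM treated. All untreated HRG1-KO libraries lay above all untreated WT libraries, and in both genotypes the treated replicate 1 lay well above the other 2 treated libraries. The genotype difference was 1.25 in untreated cells (SE 0.60, edgeR adjusted p 0.161) and 0.99 in treated cells (SE 0.60, edgeR adjusted p 0.293), neither past the threshold.

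Whether LMO2 was called depended on the model fitted and on the libraries numbered 1. Without them all 4 differences passed the threshold: butyrate -1.37 in WT (edgeR adjusted p 0.0115) and -1.20 in HRG1-KO (0.0168), and genotype 1.45 untreated (0.00282) and 1.62 treated (0.00196). With all libraries, the butyrate differences were -0.26 in WT and -0.52 in HRG1-KO (SE 0.59 each, edgeR adjusted p 0.870 and 0.677). The replicate block gave genotype differences of 1.36 untreated (edgeR adjusted p 0.0236) and 1.18 treated (0.0491). A fit of the 2 untreated groups alone also called it (edgeR adjusted p 0.00388).

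TAL1, the helix-loop-helix member of the complex, had no difference past the threshold. It lies at chr1:47216290-47232220 on the minus strand. WT libraries held 121, 110.2 and 130.4 CPM untreated and 248, 80.7 and 72.6 CPM treated. HRG1-KO libraries held 127, 154 and 92.4 CPM untreated and 179.4, 126 and 66.3 CPM treated. All pairs of groups overlapped, and replicate 1 was the highest library of both treated groups. The 4 differences lay between -0.11 and 0.15 (SE 0.44 each), with edgeR adjusted p from 0.905 to 1.00.

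NFE2, the partner of small MAF proteins at globin enhancers, was lower in untreated HRG1-KO cells. It lies at chr12:54292111-54301121 on the minus strand. Untreated WT held 436, 248.9 and 354 CPM, and untreated HRG1-KO 146, 147 and 179 CPM. Treated WT held 432, 326 and 226 CPM and treated HRG1-KO 278, 237 and 160.0 CPM. The untreated groups did not overlap, while the treated groups did. The untreated difference was -1.14 (SE 0.29, edgeR adjusted p 0.0125), a level of 0.453 times that of WT, and the treated one was -0.54 (SE 0.28, edgeR adjusted p 0.215). The change of the genotype difference with treatment was 0.60 (SE 0.40, edgeR adjusted p 1.00), so the 2 treatments were not shown to differ. Leaving out single libraries gave -1.33 to -0.94 for the untreated difference, and only the fit without replicate 1 of untreated WT lost the call (-0.94, edgeR adjusted p 0.0544). Without all libraries numbered 1 it was -0.91 (edgeR adjusted p 0.0372).

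KLF1, the CACC-binding activator, varied widely between replicates, and no difference was called in the main edgeR fit. It lies at chr19:12884422-12887199 on the minus strand. WT libraries held 203, 106 and 184 CPM untreated and 329, 77.5 and 67.4 CPM treated, and HRG1-KO libraries 93.4, 49.7 and 91.8 CPM untreated and 179.7, 77.5 and 51.3 CPM treated. All untreated HRG1-KO libraries were below all untreated WT libraries, and the treated groups overlapped, with replicate 1 highest in both. The untreated genotype difference was -1.07 (SE 0.60, edgeR adjusted p 0.228), not past the threshold. It was -1.06 with the replicate number as a block (edgeR adjusted p 0.0449) and -1.05 without the libraries numbered 1 (0.0466), both past it. The 2 untreated groups fitted alone also called it (edgeR adjusted p 0.0234). Butyrate differences were -0.06 in WT and 0.39 in HRG1-KO (SE 0.59 each, edgeR adjusted p 0.980 and 0.766).

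GFI1B, the repressor, lies at chr9:132944000-132991687 on the plus strand and overlaps TSC1 on the opposite strand. It held 60.9, 98 and 118 CPM in untreated WT and 219.6, 109 and 87.3 in treated WT. It held 51.3, 66.2 and 67.1 CPM in untreated HRG1-KO and 168, 150.4 and 79.1 in treated HRG1-KO. The HRG1-KO groups did not overlap, and the WT groups did. The butyrate difference was 1.11 in HRG1-KO (SE 0.37, edgeR adjusted p 0.124) and 0.59 in WT (SE 0.37, edgeR adjusted p 0.444). DESeq2's Wald test called the HRG1-KO difference (1.14, DESeq2 adjusted p 0.0479), and the difference between genotypes was 0.52 (SE 0.52, edgeR adjusted p 1.00).

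MYB, the progenitor factor, lies at chr6:135181315-135219173 on the plus strand. WT libraries held 213, 331 and 217 CPM untreated and 304, 199 and 157 CPM treated, and HRG1-KO libraries 203, 228 and 193 CPM untreated and 301, 220.3 and 116 CPM treated. All groups overlapped. The 4 differences lay between -0.29 and 0.03 (SE 0.33 each), with edgeR adjusted p from 0.594 to 0.982. The log2 ratio of KLF1 to MYB counts, which sets an activator of terminal genes against a progenitor factor, was -0.65 ± 0.86 without and -0.82 ± 0.82 with butyrate in WT, and -1.46 ± 0.64 without and -1.14 ± 0.38 with it in HRG1-KO (SD, n = 3). Its 4 differences had exact permutation p-values of 0.3 to 1.

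**Figure D3:**
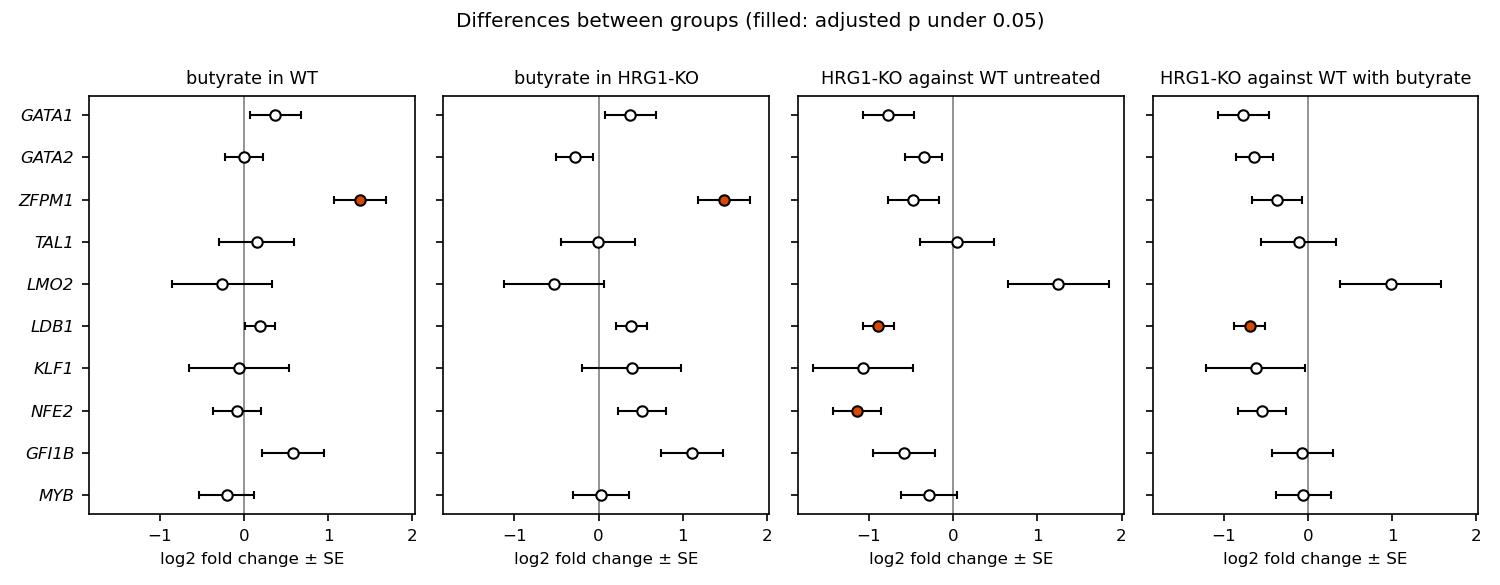
Log2 fold change with its SE (x axes) of each of the 10 genes (y axis) in the butyrate comparisons of WT and HRG1-KO and the genotype comparisons without and with butyrate, filled where edgeR's adjusted p was under 0.05. Filled points are ZFPM1 in both butyrate panels, NFE2 and LDB1 in untreated cells and LDB1 in treated cells.

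Over the 10 factors, most genotype differences were negative. The median of the 10 log2 differences with butyrate was 0.08 in WT and 0.38 in HRG1-KO, beside 0.02 and 0.00 over all tested genes. The median genotype difference was -0.53 in untreated and -0.45 in treated cells, beside 0.02 and -0.00 over all genes. The direction was negative for 8 of 10 factors in untreated cells and for 9 of 10 in treated cells, LMO2 being positive in both. The genotype comparisons share no libraries with each other, but each shares libraries with the butyrate comparisons. The 2 groups did not overlap for 1 factor in the WT butyrate comparison (21.7% of all genes, 11.3% higher and 10.4% lower) and for 3 in that of HRG1-KO (24.4%, 12.6% higher), all higher. They did not overlap for 5 factors in the untreated genotype comparison, 4 of them lower (42.3% of all genes, 20.2% lower), and for 2 in the treated one, both lower (33.9%, 16% lower).

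The response to butyrate was not shown to differ between genotypes for any of the 10 factors. The interaction, the butyrate difference in HRG1-KO minus that in WT, was called for 0 of 10 factors and 0% of all 15805 genes in edgeR. No factor reached an unadjusted p under 0.05, a level reached by 4.16% of all genes, and DESeq2 called 0 of the 10 factors and 81 genes. The median interaction of the factors was 0.15, beside -0.02 over all genes. NFE2 had the largest value, 0.60 (SE 0.40), and GATA2 the lowest, -0.29 (SE 0.31).

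Direction was also read within each replicate number. Untreated HRG1-KO was lower than WT within all 3 numbers for 7 factors (GATA1, GATA2, KLF1, NFE2, LDB1, GFI1B and MYB), beside 30.5% of all genes, and higher within all 3 for LMO2. Treated HRG1-KO was lower within all 3 numbers for 5 factors (GATA1, GATA2, NFE2, LDB1 and ZFPM1), beside 29.2% of all genes, and again higher for LMO2. Butyrate gave the same direction in all 3 numbers for ZFPM1 alone in WT (beside 22.3% of all genes higher) and for GATA1, LDB1, ZFPM1 and GFI1B in HRG1-KO (beside 26% higher and 27% lower), although the GATA1 difference in number 3 was 0.00.

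The spread between replicates of the treated groups was shared by most factors. Replicate 1 was the highest treated WT library for 9 of the 10 genes, all but ZFPM1, beside 40.3% of all genes, and the highest treated HRG1-KO library for 8 of 10, all but GATA2 and ZFPM1, beside 37.2% of all genes. The treated minus untreated difference within number 1 exceeded that within number 3 for all 10 factors in both genotypes, beside 48.9% of all genes in WT and 48.5% in HRG1-KO. In WT the difference within numbers 1, 2 and 3 was 0.70, -0.46 and -1.45 for KLF1. It was 1.04, -0.45 and -0.85 for TAL1 and 0.54, -0.75 and -1.90 for LMO2. For GFI1B it was 1.85, 0.15 and -0.43. In each of these 4 genes a rise in number 1 met a fall in number 3, and the mean over libraries lay between them. ZFPM1 differed in that it was higher in every number, with 1.38, 2.04 and 0.60 in WT and 1.37, 1.78 and 1.14 in HRG1-KO. These counts of libraries were made after the values had been seen.

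**Figure D4:**
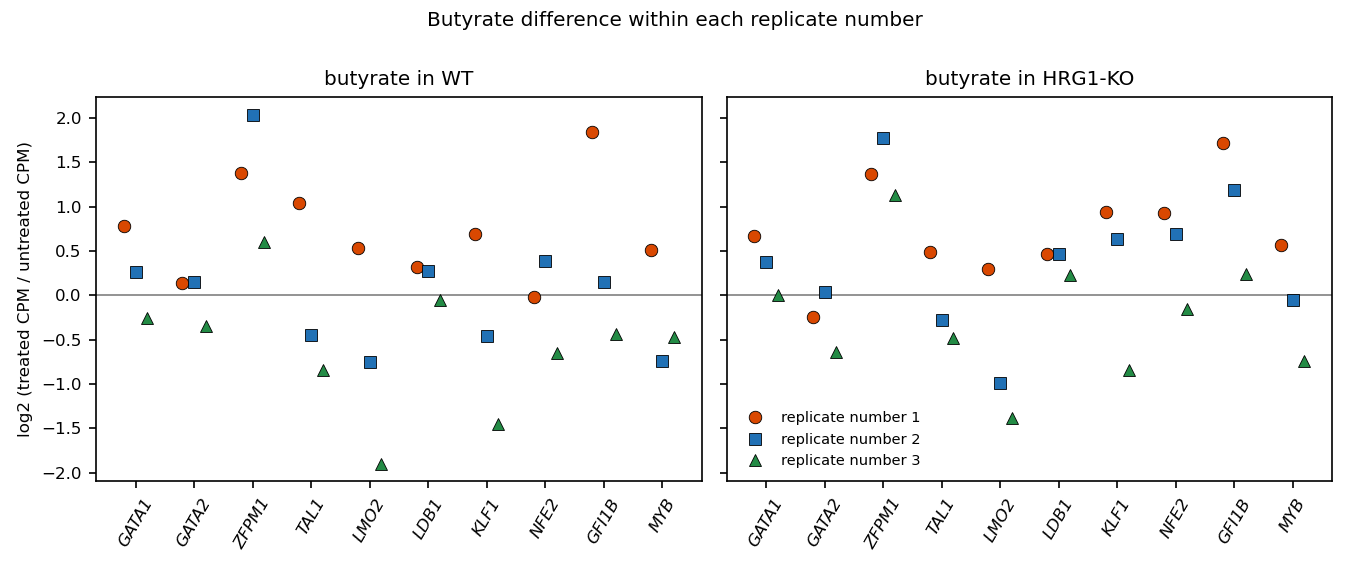
Log2 ratio of treated to untreated CPM (y axis) within each replicate number for the 10 genes (x axes), in WT (left) and HRG1-KO (right). Number 1 lies above number 3 for every gene in both panels, and ZFPM1 is the gene for which all 6 points lie above 0.5.

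Levels of the 10 genes were compared with each other per kilobase of annotated exon, as mean CPM per kb in each group. GATA1 was the highest and ZFPM1 the lowest in all 4 groups, with 202 ± 28.7 and 6.94 ± 1.24 in untreated WT (SD, n = 3). The order in untreated WT was GATA1, NFE2 (148), LDB1 (106), KLF1 (102), GATA2 (64.4), MYB (54.6), LMO2 (37.8), GFI1B (36.3), TAL1 (23.8) and ZFPM1. Neighbours in that order overlapped in their 3 libraries, except TAL1 and ZFPM1. In untreated HRG1-KO, LMO2 stood second (90.0 ± 6.29 CPM per kb), between GATA1 (118 ± 1.47) and NFE2 (66.9 ± 7.99), and its libraries overlapped with neither. ZFPM1 stayed last with butyrate, at 18.1 ± 5.78 in WT and 14.0 ± 5.40 in HRG1-KO.

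The genes whose profiles over the 12 libraries were most like those of the called factors were found by root mean square difference of centred log2 CPM over 15804 other genes. For LDB1 they were FBXW5 (0.137) and DEDD2 (0.147), for ZFPM1 TMEM164 (0.212) and UROS (0.225), and for NFE2 NFIX (0.212) and LDB1 itself (0.229). UROS encodes an enzyme of heme synthesis. NFE2 and LDB1 were also the closest of the 45 pairs among the 10 factors, and LMO2 and ZFPM1 the most distant (1.51).

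Partners and relatives of the factors were read from lists of known genes, counted in the same edgeR test. The lists were chosen with earlier results of these data known. Among 11 partners of the TAL1, LMO2 and LDB1 complex, 0 were called with butyrate in either genotype (unadjusted p under 0.05 for 3 in WT and 1 in HRG1-KO; DESeq2 called 0 in both). In HRG1-KO against WT, 3 were called higher without and with butyrate and 0 lower: the E-protein TCF4 (1.64 and 1.73), SSBP3, a stabiliser of LDB1 (0.92 and 0.76), and CBFB, the partner of RUNX1 (0.74 and 0.79). TCF4 held 38.1 to 47.9 CPM in untreated WT and 105 to 146 CPM in untreated HRG1-KO, with no overlap. The list's median was 0.29 in untreated and 0.20 in treated cells, beside 0.02 and -0.00 over all genes, and 3 of 11 called stands beside 22.6% and 19% of all genes.

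Among 18 corepressor subunits that GFI1B, ZFPM1 and TAL1 can recruit, 0 were called with butyrate (unadjusted p under 0.05 for 1 in WT and 0 in HRG1-KO, and 0 by DESeq2). In untreated HRG1-KO, HDAC1 and RBBP4 were higher (0.62 and 0.83), and in treated HRG1-KO HDAC1, MTA1, MTA3 and RBBP4 (0.64, 0.71, 1.14 and 0.72), with 0 lower in either, beside 11.7% and 10.1% of all genes called higher. The list's medians were -0.00 and -0.06. HDAC1 is a deacetylase, RBBP4 a histone-binding protein, and MTA1 and MTA3 are scaffolds of the NuRD complex.

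Among the 8 partners and relatives of NFE2, 4 were lower and 0 higher in untreated HRG1-KO cells. These were the small MAF genes MAFK (-0.91) and MAFG (-0.70), the competing repressor BACH1 (-0.82) and the related factor NFE2L3. In treated HRG1-KO cells MAFK (-1.20), MAFG (-0.69) and BACH1 (-0.84) were lower and 0 were higher. BACH1 held 77.3 to 92.2 CPM in untreated WT and 45.1 to 49.2 CPM in untreated HRG1-KO, with no overlap. With butyrate, NFE2L3 was called higher in HRG1-KO (1.34), and in WT 0 were called, with 2 at an unadjusted p under 0.05 and DESeq2 called MAFK higher and MAFF lower. The list's median was -0.54 in untreated and -0.39 in treated cells, and the share of all genes called lower was 10.9% and 8.89%.

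Of 15 paralogs of the factors, 11 were tested. GATA4, GATA5 and GATA6 were among those called, and GATA3 was not called in any comparison. With butyrate 1 paralog was called higher in WT and 3 in HRG1-KO, beside 1.8% and 2.8% of all genes. In HRG1-KO against WT 3 were higher and 1 lower in untreated cells, and 2 higher and 1 lower in treated cells. Among all genes, 11.7% were higher and 10.9% lower in untreated cells, and 10.1% and 8.89% in treated cells. GATA4 counts in WT were 0, 0 and 3 without butyrate and 31, 51 and 31 with it, and in HRG1-KO 0, 0 and 2 without and 64, 107 and 49 with it. All untreated libraries were at or under the limit of 3 counts, so the rise was at least 9.78-fold in WT and at least 16.7-fold in HRG1-KO. GATA5 held 130, 169 and 273 counts in untreated WT and 0, 0 and 1 in untreated HRG1-KO, at least 50.0-fold lower, and treated HRG1-KO held 38, 30 and 23 counts, at least 7.22-fold above untreated.

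GATA6 was higher in HRG1-KO than in WT, with 5.47 to 7.22 CPM against 0.639 to 1.11 CPM in untreated cells (2.84, edgeR adjusted p 0.000428) and 16.5 to 44.7 against 1.24 to 2.16 CPM in treated cells (4.24, edgeR adjusted p 3.44e-05). Butyrate raised it in HRG1-KO (2.46, edgeR adjusted p 0.00855). LMO4, a LIM-only paralog of LMO2, was also higher in HRG1-KO (0.71 and 0.93), and MYBL1, a paralog of MYB, in untreated cells (2.52). Other haematopoietic factors had 1 called gene of 6 tested in the main edgeR fit, SPI1, the myeloid factor that opposes GATA1. SPI1 was lower in untreated HRG1-KO (-1.44) and rose with butyrate there (1.88). DESeq2 and the replicate block each also called IKZF1 lower in HRG1-KO, both without and with butyrate.

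**Figure D5:**
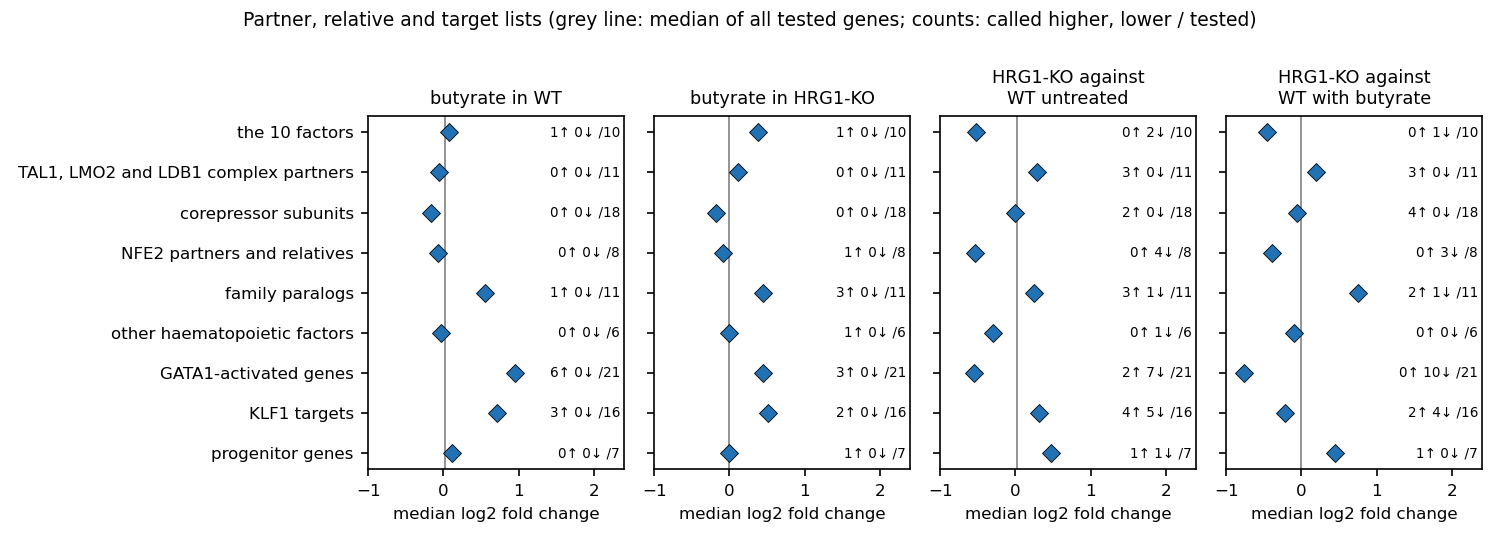
Median log2 fold change (x axes) of the 10 factors and of 8 lists of partners, relatives and known targets (y axis) in the 4 comparisons, with the numbers of genes called higher and lower and the number tested printed at the right of each panel and a grey line at the median of all tested genes. GATA1-activated genes have medians of 0.95 and 0.44 with butyrate and -0.55 and -0.76 in HRG1-KO against WT.

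Known targets of GATA1 and KLF1 were counted in the same way. Among all tested genes, 1.8% were called higher and 0.55% lower with butyrate in WT, and 2.8% and 0.595% in HRG1-KO. Of 22 GATA1-activated genes, 21 were tested, and butyrate raised 6 in WT and lowered 0, with a list median of 0.95 beside 0.02 over all genes. Among them were the heme synthesis gene ALAS2 (3.00), the anion exchanger SLC4A1 (4.86), the mitochondrial iron importer SLC25A37 (1.35) and the alpha globins HBA1 and HBA2 (2.61 and 2.73), which share reads as near-identical copies and are uncertain singly. In HRG1-KO butyrate raised 3, SLC4A1 (3.40), SLC25A37 (1.02) and the transferrin receptor TFR2 (1.70), and lowered 0, with a median of 0.44. GATA1 itself was not called in either genotype.

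In HRG1-KO against WT the same list split. In untreated cells 7 were lower, among them TFR2 (-4.39), RHAG, an Rh-associated glycoprotein (-1.46), EPB42 (-2.84) and both alpha and both gamma globin genes, and 2 were higher, among them ALAS2 (2.91). ALAS2 held 13.4 to 40.2 CPM in untreated WT and 164 to 207 CPM in untreated HRG1-KO, with no overlap. In treated cells 10 were lower and 0 higher, with a median of -0.76, and DESeq2 called TRIM10 higher. These counts stand beside 11.7% of all genes called higher and 10.9% lower in untreated cells, and 10.1% and 8.89% in treated cells. The gamma globin pair HBG1 and HBG2 (-2.19 and -1.95 in untreated cells) also share reads and are uncertain singly.

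Of 18 KLF1 targets 16 were tested, some of them also on the GATA1 list. Butyrate raised 3 in WT (ALAS2, SLC4A1 and the water channel AQP1, 2.68) and 2 in HRG1-KO (SLC4A1 and TFR2), with medians of 0.72 and 0.52. In untreated HRG1-KO 4 were higher (ALAS2, SPTB, BCAM, 2.49, and BSG, 1.52) and 5 lower (EPB42, TFR2, AQP1, -2.84, DMTN, -2.21, and PKLR, -2.01). BCAM and BSG carry the Lutheran and Ok blood groups, DMTN is a membrane skeleton protein and PKLR the red cell pyruvate kinase. In treated HRG1-KO 2 were higher (BCAM and BSG) and 4 lower (EPB42, TFR2, AQP1 and ICAM4). The list's medians were 0.32 and -0.22. Among all genes, 1.8% and 2.8% were called higher with butyrate in WT and HRG1-KO. Between genotypes 11.7% were higher and 10.9% lower in untreated cells, and 10.1% and 8.89% in treated cells. Among 7 tested progenitor genes, the stem cell factor receptor KIT was called higher in HRG1-KO (1.97 untreated and 2.20 treated). SPI1, also on this list, was called lower in untreated HRG1-KO and higher there with butyrate, as given above. The main edgeR fit did not call the other 5. DESeq2 called KIT higher and BCL2 lower with butyrate in both genotypes, and CDK6 lower in WT. The replicate block called KIT higher and BCL2 and CDK6 lower with butyrate in both. CD34, not tested in edgeR, was called higher by DESeq2 in treated HRG1-KO against WT. The list's medians were 0.47 and 0.45 between genotypes. MYB and GATA2, also progenitor factors, were not called in the main edgeR fit. The replicate block called GATA2 lower in treated HRG1-KO, as given above.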

How the data were processed

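Whole-number read counts per gene for 12 libraries were deposited by the authors as 1 table. FastQC 0.12.1, STAR 2.7.11b and hg38 are named in the submitters' processing notes; the counter, annotation, strand setting and filters are not given in the sources used here. Columns were matched to samples by library name. Library totals were 19963594 to 30348538 counts, so the smallest count of the 10 genes, 549, has a counting error of 4.27%; Wilson intervals at the 95% level and the limit of 3 counts for a count of 0 cover counting error only.

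Counts were filtered (filterByExpr, minimum count 10), TMM-scaled and fitted over all 12 libraries with edgeR 4.0.16 (limma 3.58.1, R 4.3.3) by the quasi-likelihood test, with 5 contrasts and Benjamini-Hochberg adjustment over 15805 genes at 0.05. The script was tested on simulated data. DESeq2 1.42.0, other scalings and filters, a replicate block, a fit of the compared groups alone and leaving out libraries were alternatives. Count ratios (0.5 added) were compared by two-sided exact permutation tests. Same-numbered libraries deviated together (correlations 0.147 to 0.595 between groups), and libraries of different numbers gave -0.512 to 0.343. Between treated genotypes these ranges overlapped, with 0.315 the lowest same-numbered value and 0.343 the highest of the others. In the other comparisons they did not overlap. The numbers, taken from the labels, were therefore treated as pairing the samples in the replicate block and in the differences within each number. The main edgeR fit and the exact permutation tests given with the ratios did not use this pairing. No 2 replicates agreed within sampling noise (smallest chi-square per degree of freedom 40.0). All 10 factors are described, nearest profiles are named for the called ones, and list genes are named where called. The members and lists were chosen with earlier results of these data known. The values of 1 gene of the target lists are not reported here, and it stays in the lists' counts and medians.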

Additional observations from a re-analysis of the deposited data

How the results depend on the processing

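Of the results for single factors, 648 kept their direction and side of the threshold, 66 reversed, 20 passed it newly and 16 no longer passed it. All 72 ratio values moved by less than the replicate spread, a rule that ignores sign. With 1 library left out, KLF1 to MYB ran from -0.67 to 0.12 with butyrate in WT and -0.04 to 0.52 in HRG1-KO. Between treated genotypes it ran from -0.59 to 0.15, and GATA1 to GATA2 from -0.26 to 0.09. The cause of the changes was not tested. DESeq2 called 1296 genes with butyrate in WT, 1490 in HRG1-KO (2 factors) and 81 for the interaction. Without a filter 2 interaction genes were called. Requiring 10 counts in every library, which tests fewer genes, gave 304 genes with butyrate in HRG1-KO, 2334 and 1947 between genotypes without and with butyrate and 1 for the interaction. The replicate block gave 1361 and 1852 genes with butyrate in WT and HRG1-KO, 4612 between treated genotypes (4 factors), 3 for the interaction and 5 factors between untreated genotypes, and it changed no call of a factor beyond those given beside the results. Fitting only the groups compared gave 63 genes and 0 factors with butyrate in WT, 5 factors between untreated genotypes and 1802 genes and 0 factors between treated ones. Without the libraries numbered 1, butyrate changed 1884 genes in WT and 2164 in HRG1-KO (2 factors), the interaction 9, and 4 factors differed between untreated genotypes.

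With 1 library left out, genes called ranged from 43 (without untreated WT replicate 2) to 1243 (without treated WT replicate 1) for butyrate in WT, 48 to 833 in HRG1-KO, 2485 to 2844 between untreated genotypes, 2014 to 3477 between treated ones and 0 to 2 for the interaction. Factors called ranged over 0 to 2, 0 to 1, 1 to 2, 0 to 3 and 0 to 0.

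The reversed differences were not past the threshold with all libraries. TAL1 with butyrate in HRG1-KO was 0.032 by DESeq2, 0.032 with RLE factors, 0.10 by library size alone, 0.071 with 10 counts in every library and 0.019 with only those groups. GATA2 with butyrate in WT was -0.013 by library size alone, -0.0052 without a filter and with the replicate block, and -0.11 without the libraries numbered 1. Library size alone gave TAL1 0.066, GFI1B 0.087 and MYB 0.070 between treated genotypes and TAL1 0.041 for the interaction; it moved the median of all genes by 0.12 with butyrate in HRG1-KO and by 0.11 for the interaction. The replicate block gave TAL1 -0.069 with butyrate in WT, MYB -0.057 with butyrate in HRG1-KO and TAL1 -0.0072 between untreated genotypes. Without the libraries numbered 1, butyrate gave TAL1 -0.67 and GFI1B -0.15 in WT and KLF1 -0.16 and MYB -0.34 in HRG1-KO, treated genotypes TAL1 0.31 and GFI1B 0.21, and the interaction TAL1 0.30 and LMO2 0.17.

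Leaving out 1 library gave, with butyrate in WT, GATA1 -0.082 to 0.65, GATA2 -0.25 to 0.15, KLF1 -1.20 to 0.30, TAL1 -0.66 to 0.44, NFE2 -0.34 to 0.13, LMO2 -1.57 to 0.14 and MYB -0.52 to 0.029. With butyrate in HRG1-KO it gave KLF1 -0.29 to 0.73, TAL1 -0.37 to 0.31 and MYB -0.31 to 0.34. Between untreated genotypes TAL1 was -0.16 to 0.19. Between treated ones KLF1 was -1.29 to 0.49, TAL1 -0.47 to 0.68, GFI1B -0.32 to 0.42 and MYB -0.39 to 0.24. For the interaction GATA1 was -0.27 to 0.47, KLF1 -0.22 to 1.60, TAL1 -0.52 to 0.67, LMO2 -0.91 to 1.05, ZFPM1 -0.23 to 0.34 and MYB -0.10 to 0.55.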
